A study of Mus musculus with 2 samples.

Results

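The barcodes described here are droplets of aortic smooth muscle cells (SMCs) that held almost no Malat1 RNA. In single-cell data a barcode stands for 1 droplet, and each unique molecular identifier (UMI) for 1 captured RNA molecule. Members held 1000 to 4000 UMIs of more than 200 genes, with under 10% from mitochondrial transcripts. They also had at least 3 UMIs of Myh11, Cnn1 and Lmod1 together, at most 1 UMI of Malat1, and none of Pecam1, Cdh5, Ptprc or Pdgfra. There were 364 members among 15210 deposited barcodes (2.39%), 197 of 8947 in aorta 1 and 167 of 6263 in aorta 2. They were compared with 331 barcodes of the same gate that had at least 5 Malat1 UMIs, called Malat1-rich, 178 in aorta 1 and 153 in aorta 2.

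Both libraries came from WT mice of genotype GFPiSMC on the C57BL/6J strain, 1 thoracic aorta each (1 group, n = 2). All animals carried the Myh11-CreERT2 driver and the mT/mG reporter, which switches from tdTomato to eGFP in cells where Cre has acted, and at 3 weeks of age both were given 5 daily intraperitoneal doses of 1 mg tamoxifen. The aortas were collected at 12 weeks and dissociated enzymatically at low temperature, and the sort kept live singlets whether or not they carried GFP. The files held 47009780 and 30919996 UMIs; the libraries shared 18 barcodes, and 0 of these were members. Because Myh11 drives the Cre and is also a gene of the gate, the reporter gives no independent check of lineage.

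Malat1 is an abundant long noncoding RNA that stays in the nucleus, in the speckles where splicing factors gather. A droplet that holds cytoplasm without a nucleus is therefore expected to carry little of it, and a bare nucleus to carry much. Mature mRNAs for ribosomal proteins, metabolic enzymes and the contractile apparatus are mostly cytoplasmic, whereas some transcripts with retained introns and many long noncoding RNAs are held in the nucleus. Vascular SMCs are long, thin cells packed with actin, myosin and the intermediate filaments desmin and vimentin, and they are bound to elastic laminae through adhesion plaques. The question asked of these barcodes was which transcripts stay where Malat1 is missing.

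Malat1 split the gated barcodes into a low and a high group, with fewer barcodes at 5 to 39 UMIs than on either side. Of 557 gated barcodes in aorta 1, 87 had 0 Malat1 UMIs, 110 had 1, 182 had 2 to 4, 48 had 5 to 39 and 130 had 40 or more. Of 375 in aorta 2, 91 had 0, 76 had 1, 55 had 2 to 4, 44 had 5 to 39 and 109 had 40 or more. As a share of UMIs, Malat1 made up 0.028% and 0.0238% in the members of aortas 1 and 2, 0.146% and 0.126% in barcodes with 2 to 4 Malat1 UMIs, and 9.16% and 8.47% in the Malat1-rich barcodes. In SMC barcodes of over 4000 and up to 25000 UMIs with at least 5 Malat1 UMIs (1225 and 881 barcodes), here called deep SMCs, the share was 3.54% and 3.13%. The Malat1-rich barcodes at low depth thus held more Malat1 per UMI than deep SMCs did, so the deep SMCs serve below as another comparator. All these values follow from the rule or from Malat1 and carry no test.

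**Figure D1:**
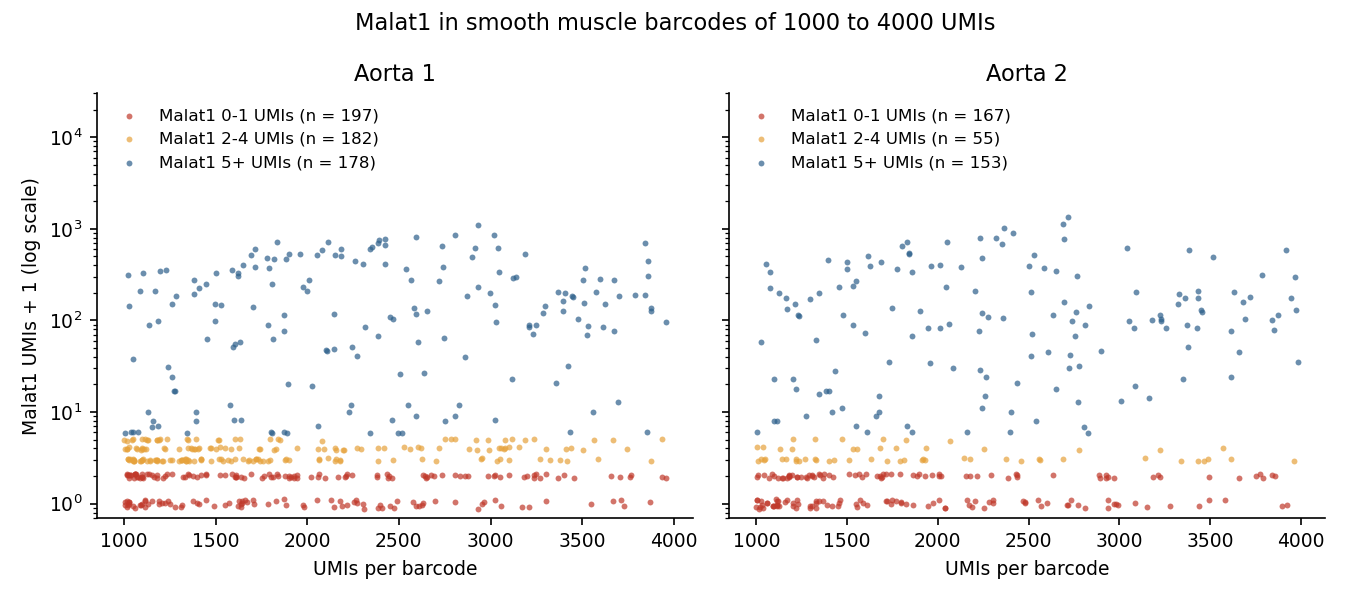
Malat1 UMIs plus 1 (log scale) against total UMIs for each gated SMC barcode, 1 panel an aorta, with a slight vertical jitter, members in red, barcodes of 2 to 4 Malat1 UMIs in orange and Malat1-rich barcodes in blue. Members lie at 0 or 1 UMI over the whole range of depth, and most Malat1-rich barcodes lie at 40 UMIs or more.

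Malat1-poor barcodes made up 35.4% of gated SMC barcodes in aorta 1 (exact 95% binomial interval 31.4 to 39.5) and 44.5% in aorta 2 (39.4 to 49.7). They were most common at 4000 UMIs or less, where a limit of 1 Malat1 UMI is also met more easily. From 500 to under 1000 UMIs, outside the gate, the share was 42.9% and 57.8%, from 1000 to under 2000 UMIs 37.7% and 52.5%, and at 2000 to 4000 UMIs 32.7% and 35.6%. It was 4.20% and 5.99% above 4000 and up to 8000 UMIs and 0.127% and 0.768% above 8000 and up to 25000 UMIs. Thinned to 1000 UMIs a barcode, the expected shares were 48.6% and 58.7% from 1000 to under 2000 UMIs and 52.1% and 45.3% at 2000 to 4000 UMIs. The fall within the gate thus remained in aorta 2 only. In the 2 deeper bins the thinned shares were 7.99% and 10.4%, then 1.05% in either aorta. Intervals cover counting error only.

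Barcodes gated as other cell types of the same aortas were seldom Malat1-poor at 1000 to 4000 UMIs. Endothelial barcodes (Pecam1 and Cdh5 at 3 UMIs or more) had 4.22% and 5.80%, leukocyte barcodes (Ptprc at 2 or more) 0.990% and 2.65%, and fibroblast barcodes (Pdgfra at 2 or more) 3.25% and 2.75%. Each of these had at most 1 UMI of Myh11, Cnn1 and Lmod1 and none of the genes that defined the other types. Their exact intervals reached at most 8.44%, below the lowest bound for SMCs in either aorta. The median depth of these types was 2405 to 3143 UMIs against 1880 and 1911 in the gated SMC barcodes. Thinned to 1000 UMIs a barcode, the expected shares were 50.3% and 52.4% in SMCs, against 6.50% and 7.46%, 1.72% and 3.07%, and 4.96% and 5.57% in the other types. No test was made between types. Of all barcodes of 1000 to 4000 UMIs, 335 of 2172 (15.4%) and 289 of 1677 (17.2%) were Malat1-poor, including some that met none of these gates. The gates also differ in their genes and limits, and RNA-poor droplets of other types may have missed theirs. The shares therefore describe gated barcodes and not whole cell types.

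The smooth muscle identity of the members was checked with genes that the rule did not use. Acta2, Tagln, Myl9 and Tpm2 together made up 6.11% and 5.82% of the members' UMIs against 3.29% and 3.16% in the Malat1-rich barcodes and 4.36% in deep SMCs of either aorta. Nothing in the counts measures the size of a cell or whether a nucleus was in the droplet, so the barcodes are called Malat1-poor rather than fragments.

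Markers of other types were sparse. Levels are given as CPM, the UMIs of a gene or list per 1000000 UMIs of a class. The endothelial list of 5 genes had 1 UMI in the members of aorta 1 and 4 in those of aorta 2, with Pecam1 and Cdh5 at 0 by the gate, and lymphocyte, Schwann, platelet and adipocyte lists had 0 to 4 UMIs each. The mesothelial list had 18 and 0 UMIs. Fibroblast markers (4 of 5 detected, Pdgfra at 0 by the gate) had summed levels of 522 and 571 CPM in members against 1633 and 1199 CPM in the Malat1-rich barcodes. Myeloid markers summed to 212 and 62.7 CPM against 713 and 489 CPM, and those of pericytes and small-vessel mural cells to 640 and 778 CPM against 732 and 1008 CPM. All 3 sums were thus lower in the members of each aorta, and their part in the results below was not tested. A haemoglobin signal in a few members is described further on.

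Members were also shallower and poorer in genes. Their lowest, median and highest UMI counts were 1004, 1827 and 3957 in aorta 1 and 1000, 1694 and 3926 in aorta 2, against medians of 2328.5 and 2318 in the Malat1-rich barcodes. Median genes per barcode were 799 and 796 against 1117.5 and 1127. At an equal 1000 UMIs the expected medians were 536 and 545 genes in members, 608 and 630 in Malat1-rich barcodes and 636 and 644 in deep SMCs. The transcriptome of the members was therefore the least diverse of the 3 classes at equal depth. Their mitochondrial share, capped at 10% by the gate, had medians of 7.33% and 7.10% against 5.18% and 5.01%. Depth and mitochondrial share moved with the class, and results with a depth-matched comparator and with a limit of 5% are given in the closing section.

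UMIs were summed per aorta and class, and the 4 sums were compared with edgeR, with the aorta as a block. Neither the 8 genes of the rule nor the 13 mitochondrial genes entered the sums. From here on, CPM is of the UMIs that remained. A level is a share of the UMIs captured in a class, so that more of a transcript in a droplet and less of the others cannot be told apart. Of 5095 genes that passed the filter on low counts, 2095 (41.1%) differed at an adjusted p under 0.05, 1027 (20.2%) higher and 1068 (21.0%) lower in the members. With a log2 fold change beyond 1 as well, 440 (8.64%) were higher and 896 (17.6%) lower. With a comparator matched to the members in depth, 807 of 4553 genes (17.7%) were higher and 855 (18.8%) lower. Against the deep SMCs, 1062 of 11319 genes (9.38%) were higher and 724 (6.4%) lower. All 3 comparisons share the members. With the aorta as a block, the test sets the class difference only against its variation between these 2 aortas. The variance was estimated with information shared over genes. A gene seen in 1 class only had to differ in order to pass the filter.

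The split between higher and lower depends on how the sums are scaled. With scaling by library size alone, 369 genes (7.24%) were higher and 2017 (39.6%) lower, and the median log2 fold change over all genes tested moved from -0.03 to -0.56. DESeq2 called 368 genes higher (7.22%) and 140 lower (2.75%), with 791 genes left without an adjusted p. Of the genes named here, 29 lost their call with DESeq2. Among those higher in the members they were Hbb-bs, Hba-a1, Efhd2, Trnp1, Flnc, Cav1, Kcnmb1, Gucy1b1, Mgp, Cyb5a and Ccng1. Among those lower they were Gm26632, Gm26917, Ppp1r12a, Rhob, Pdlim5, Sorbs2, Itga1, Dmd, Atp2b1, Fbln5, Sec61a1, Hspa5, Phkg1, Gata6, Mef2a, Egr1, Hspa1b and Cdkn1a. Rian, Cacna1c, Ckm and Meis1 were among those without an adjusted p. Fold changes here are on the TMM scale, whose factors were 0.820 and 0.846 for the members and 1.185 and 1.216 for the Malat1-rich sums, so they lie above the ratio of the CPM values printed beside them. Where a list below is said to be higher, its median on the library-size scale is given beside it.

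Nuclear long noncoding RNAs had the lowest median of the lists. The 15 found in the files together took 0.0624% and 0.0591% of UMIs in members against 0.211% and 0.195% in Malat1-rich barcodes. Only 8 passed the filter on low counts, of which 6 were lower and 1 higher, with a median log2 fold change of -3.04 beside -0.03 over all genes. The 6 lower genes had 1 to 11 UMIs in each sum of members, so they passed largely through the Malat1-rich sums, and the count and median of these 8 follow in part from the filter. The 7 that failed had 5 and 4 UMIs in all in members against 20 and 13. Without the filter, 13 had any UMI, 6 were lower and 1 higher (median -2.41), beside 945 lower (6.65%) and 1037 higher (7.29%) of all 14220 genes. Meg3, an imprinted RNA of the Dlk1 locus, had 1 and 2 UMIs in the members of aortas 1 and 2 (2.77 and 6.79 CPM) against 159 and 146 in the Malat1-rich barcodes (444 and 470 CPM). The ratio of the counts over both aortas was 105 (exact 95% counting interval 35.7 to 513), and the fitted log2 fold change was -6.09 ± 0.38 (SE; adjusted p = 1.24e-33). The sums of the classes did not overlap.

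Kcnq1ot1, the antisense RNA that silences its imprinted cluster in cis, had 13.9 and 6.79 CPM against 414 and 280 CPM (log2 fold change -4.56 ± 0.35, adjusted p = 6.48e-26). Neat1, the scaffold of paraspeckles, had 16.6 and 37.3 CPM against 539 and 486 CPM (-3.84 ± 0.26, adjusted p = 8.13e-30). Both RNAs were low in the members of either aorta and high in all Malat1-rich sums. Dleu2 (-3.23), Mir99ahg (-2.85) and Rian (-2.29) were lower too. Against deep SMCs the log2 fold changes were -5.32 for Meg3, -3.50 for Kcnq1ot1 and -2.38 for Neat1, smaller in size but in the same direction, whereas Rian at -1.56 did not pass (adjusted p = 0.0518).

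Gas5 was the exception in this list. It hosts small nucleolar RNAs in its introns, and its spliced RNA carries the 5′ terminal oligopyrimidine start shared by ribosomal protein mRNAs. It had 532 and 469 CPM in members against 324 and 361 CPM (1.00 ± 0.15, adjusted p = 1.47e-09; 0.48 with scaling by library size). Snhg12, another such host gene, had 11.1 and 37.3 CPM against 36.3 and 58.0 CPM and was not called (-0.56, adjusted p = 0.34).

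Over all annotated noncoding genes, 75 were tested, of which 40 were lower and 18 higher, beside 21.0% lower and 20.2% higher of all genes tested. Genes scarce in the members passed the filter on low counts through the Malat1-rich sums, so these counts follow in part from the filter. Most of the 12 genes with the lowest fold change, among called genes with at least 50 UMIs, were noncoding. These 12 passed the filter through the Malat1-rich sums. Carmn, a noncoding RNA of the smooth muscle lineage, had 2 and 1 UMIs in members against 358 and 310 in Malat1-rich barcodes. Its count ratio was 231 (78.6 to 1121) and its log2 fold change -7.23 ± 0.30 (adjusted p = 3.08e-53). By these counts, an RNA typical of the cell type was almost missing from barcodes that were rich in that cell type's mRNAs. Carmn could be tested only because it was high in the Malat1-rich sums, so its adjusted p is not separate support for this.

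Gm26632 and Gm26917 had 0 UMIs in the members of both aortas against 60 and 44 and against 64 and 35. Set against a floor of 3 UMIs over the members, they were at least 35.9-fold and at least 34.2-fold lower. Both were also at 0 in barcodes with 2 to 4 Malat1 UMIs, and DESeq2 called neither (adjusted p = 0.266 and 0.277). With 1 or 2 UMIs in all members, 4632427E13Rik, AI838599, Gm26532, Rbm4b, Spaca6 and Dnm3os had count ratios of 124 (21.9 to 4948), 84.9 (14.8 to 3394), 75.6 (13.2 to 3026), 70.4 (12.2 to 2822), 31.6 (8.38 to 267) and 31.6 (8.38 to 267). Leng8, with 3 UMIs, had a ratio of 35.6 (11.8 to 175). These wide intervals come from the members' counts and leave the order of the 7 genes unsettled.

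**Figure D2:**
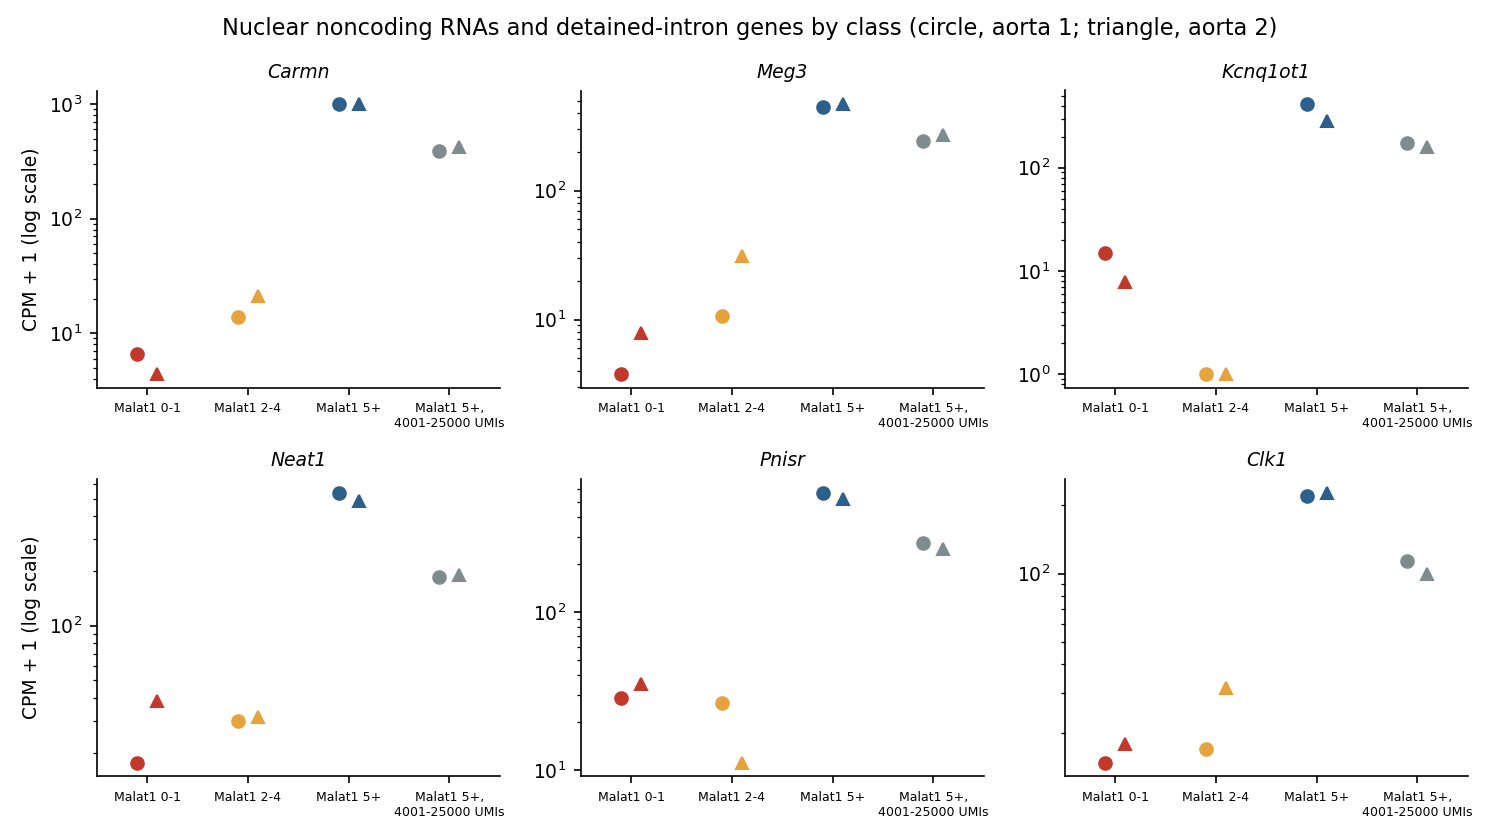
Level (CPM plus 1, log scale) of 4 nuclear noncoding RNAs and of the detained-intron genes Pnisr and Clk1 in each class, with aorta 1 as circles and aorta 2 as triangles. Members and barcodes of 2 to 4 Malat1 UMIs sit together at the bottom, deep SMCs lie above them and Malat1-rich barcodes of low depth highest in all 6 panels.

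Genes with detained introns and splicing regulators were the second depleted list. Such genes keep part of their polyadenylated RNA in the nucleus with 1 or more introns unspliced. Of 22 tested, 21 were lower and 0 higher, with a median of -1.92, and against deep SMCs 18 were lower and 0 higher (median -1.15). Together the 22 genes took 0.193% and 0.166% of UMIs in members, 0.848% and 0.794% in Malat1-rich barcodes and 0.514% and 0.483% in deep SMCs. The classes did not overlap.

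Pnisr, which encodes a splicing-associated serine and arginine rich protein, had 27.7 and 34.0 CPM in members against 570 and 519 CPM (-3.70 ± 0.25, adjusted p = 1.38e-30). Clk1, a kinase of SR proteins, had 13.9 and 17.0 CPM against 218 and 225 CPM (-3.38 ± 0.35, adjusted p = 3.5e-16). Ogt, the O-GlcNAc transferase, followed at -3.52, Tra2a, a splicing activator, at -3.14, and Nktr at -2.92. Son, a scaffold of nuclear speckles, was lower by less (-1.82). Srsf5 had 150 and 156 CPM against 285 and 287 CPM and fell short of the threshold (-0.46, adjusted p = 0.0549).

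Transcription factor mRNAs and immediate early mRNAs lay between the nuclear lists and the rest. Of 21 transcription factor genes tested, 11 were lower and 0 higher (median -0.79), against 1 lower and 0 higher with DESeq2 and, of 19 with the depth-matched comparator, 8 lower and 1 higher. Without the filter on low counts, 8 of 31 were lower and 0 higher. Meis1, a homeobox cofactor, had 2.77 and 6.79 CPM in members against 47.5 and 38.6 CPM (-2.71 ± 0.75, adjusted p = 0.0018). These levels rest on 3 UMIs in all members against 29 in the Malat1-rich barcodes, through which the gene passed the filter. Gata6, a factor of differentiated vascular SMCs, had 33.3 and 47.5 CPM against 145 and 180 CPM (-1.57 ± 0.30, adjusted p = 5.01e-06), and Nfib (-1.14) and Mef2a (-0.84) were lower as well. The values of Myocd, the coactivator that switches on contractile genes, were 36.0 and 57.7 CPM against 115 and 87.0 CPM (-0.69, adjusted p = 0.0758), and those of its partner Srf were 22.2 and 30.6 CPM against 30.7 and 9.66 CPM (0.76, adjusted p = 0.307). Neither was called. Of 16 immediate early genes, which respond within minutes to stimulation or to tissue digestion, 7 were lower and 0 higher (median -0.95), and 3 lower and 0 higher with DESeq2. Without the filter, 6 of 20 were lower and 0 higher.

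Among them Dusp1, a MAP kinase phosphatase, had 55.5 and 54.3 CPM in members against 207 and 300 CPM (-1.72 ± 0.26, adjusted p = 5.31e-09). Jun had 169 and 109 CPM against 503 and 457 CPM (-1.33 ± 0.18, adjusted p = 1.97e-10), and Btg2 (-1.62) and Egr1 (-1.52) were lower too, Egr1 not against deep SMCs (-0.61, adjusted p = 0.25). The related Jund had 604 and 625 CPM against 867 and 892 CPM and was not called (-0.07, adjusted p = 0.661). Members of both lists were thus unevenly affected. Against deep SMCs 10 of 29 transcription factor genes and 10 of 19 immediate early genes were lower and 0 of either were higher.

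At the other end, mRNAs of the translation machinery were higher almost as a block. Of 76 cytosolic ribosomal protein genes tested, 75 were higher and 0 lower, with a median of 1.14 (0.62 with scaling by library size, 74 higher). Against deep SMCs 75 were higher and 0 lower (median 0.97). Ribosomal protein mRNAs made up 16.2% and 15.6% of all UMIs in members, 9.36% and 8.73% in Malat1-rich barcodes and 11.4% and 10.7% in deep SMCs. The interquartile range over members was 12.73% to 20.2% (aorta 1) and 12.3% to 19.2% (aorta 2), against 4.75% to 12.68% and 4.24% to 11.4% in the Malat1-rich barcodes. These ranges lay apart in both aortas, narrowly in aorta 1.

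Rpl39 had 2684 and 1844 CPM in members against 1423 and 905 CPM (1.41 ± 0.09, adjusted p = 6.44e-32), the largest fold change of the list. Rps6, whose protein is phosphorylated downstream of mTOR, had 1880 and 1874 CPM against 976 and 1008 CPM (1.37 ± 0.10, adjusted p = 3.9e-29). In each of these genes the lower member sum exceeded the higher Malat1-rich sum. The uncalled gene was Rpl7l1, a paralog with a role in ribosome assembly, at 55.5 and 27.2 CPM against 58.7 and 80.5 CPM (-0.25, adjusted p = 0.608). Some ribosomal protein genes share reads with processed pseudogenes, so that single values in this family are less certain than the block.

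Translation elongation and initiation factors followed the ribosomal proteins. Of 16 genes, 14 were higher and 0 lower (median 1.02; 0.49 with scaling by library size, 12 higher and 1 lower). Eef1a1, which delivers aminoacyl-tRNA to the ribosome, had 5867 and 6305 CPM in members against 3466 and 3340 CPM (1.28 ± 0.08, adjusted p = 2.53e-36). Tpt1, the translationally controlled tumor protein, had 4780 and 4961 CPM against 3290 and 3198 CPM (1.03 ± 0.08, adjusted p = 9.25e-27). Eif4a2, an RNA helicase and host of small nucleolar RNAs, had 202 and 173 CPM against 333 and 277 CPM and was not called (-0.25, adjusted p = 0.285).

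Nuclear-encoded subunits of oxidative phosphorylation were higher by about the same amount. Of 34 tested, 30 were higher and 0 lower (median 1.07; 0.54 with scaling by library size, 24 higher). Cox7c, a subunit of cytochrome c oxidase, had 1289 and 1090 CPM in members against 772 and 644 CPM (1.20 ± 0.11, adjusted p = 1.1e-20), and Cox6a1 (1.23) and Cox4i1 (1.14) were close to it. Ndufv1, a flavoprotein subunit of complex I, had 69.3 and 61.1 CPM against 78.3 and 99.8 CPM and was not called (0.02, adjusted p = 0.967). The mitochondrially encoded transcripts, whose share the gate limits, were not tested; as a description, they made up 6.99% and 6.68% of UMIs in members against 5.16% and 5.22%.

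Contractile mRNAs were higher in part. Of 21 contractile filament genes, 14 were higher and 2 lower, with a median of 0.65 that shrank to 0.13 with scaling by library size, where 9 were higher and 5 lower. Acta2, smooth muscle actin, had 29873 and 28361 CPM in members against 18502 and 18290 CPM (1.11 ± 0.06, adjusted p = 1.68e-39). Tagln, the actin-binding protein SM22, had 19723 and 18790 CPM against 10823 and 9189 CPM (1.40 ± 0.06, adjusted p = 1.08e-47). The myosin light chains Myl9 (1.25) and Myl6 (1.13), the tropomyosin Tpm2 (1.25) and caldesmon, Cald1 (1.15), were higher by similar amounts. All of these filament genes kept their direction with scaling by library size.

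Mylk, Ppp1r12a and Smtn, picked after their values were seen, had smaller fold changes than the filament genes above, or negative ones. Mylk, myosin light chain kinase, had 1486 and 1348 CPM in members against 1331 and 1214 CPM (0.60 ± 0.10, adjusted p = 3.05e-08), and its call was lost with scaling by library size (0.08, adjusted p = 0.504). Ppp1r12a, the targeting subunit of myosin phosphatase, was lower, with 632 and 503 CPM against 1191 and 1079 CPM (-0.55 ± 0.11, adjusted p = 1.77e-05; -0.22 and not called against deep SMCs). Smtn, smoothelin, had 610 and 516 CPM against 811 and 808 CPM and was not called (-0.07, adjusted p = 0.66).

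Of 18 genes of RhoGTPase signaling and actin turnover, 11 were higher and 1 lower (median 0.58; 0.05 with scaling by library size, 6 higher and 5 lower). Tmsb4x, thymosin beta 4, which holds actin monomers, had 23244 and 22851 CPM in members against 11919 and 9469 CPM (1.56 ± 0.06, adjusted p = 1.63e-53). Dstn, the severing protein destrin, had 7233 and 6346 CPM against 3980 and 3568 CPM (1.29 ± 0.07, adjusted p = 1.78e-37), and Pfn1, profilin, was higher by 0.94. Actb, cytoplasmic beta actin, had 4960 and 4292 CPM against 5342 and 6986 CPM and was not called (0.05, adjusted p = 0.663). Its direction differed between the aortas (0.35 and -0.26) and turned negative with scaling by library size (-0.48), so no direction is given for it. Rhob, a short-lived mRNA of an endosomal GTPase, was the lower gene (-0.53, adjusted p = 0.0479), a call lost without the aorta as a block (adjusted p = 0.0822).

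**Figure D3:**
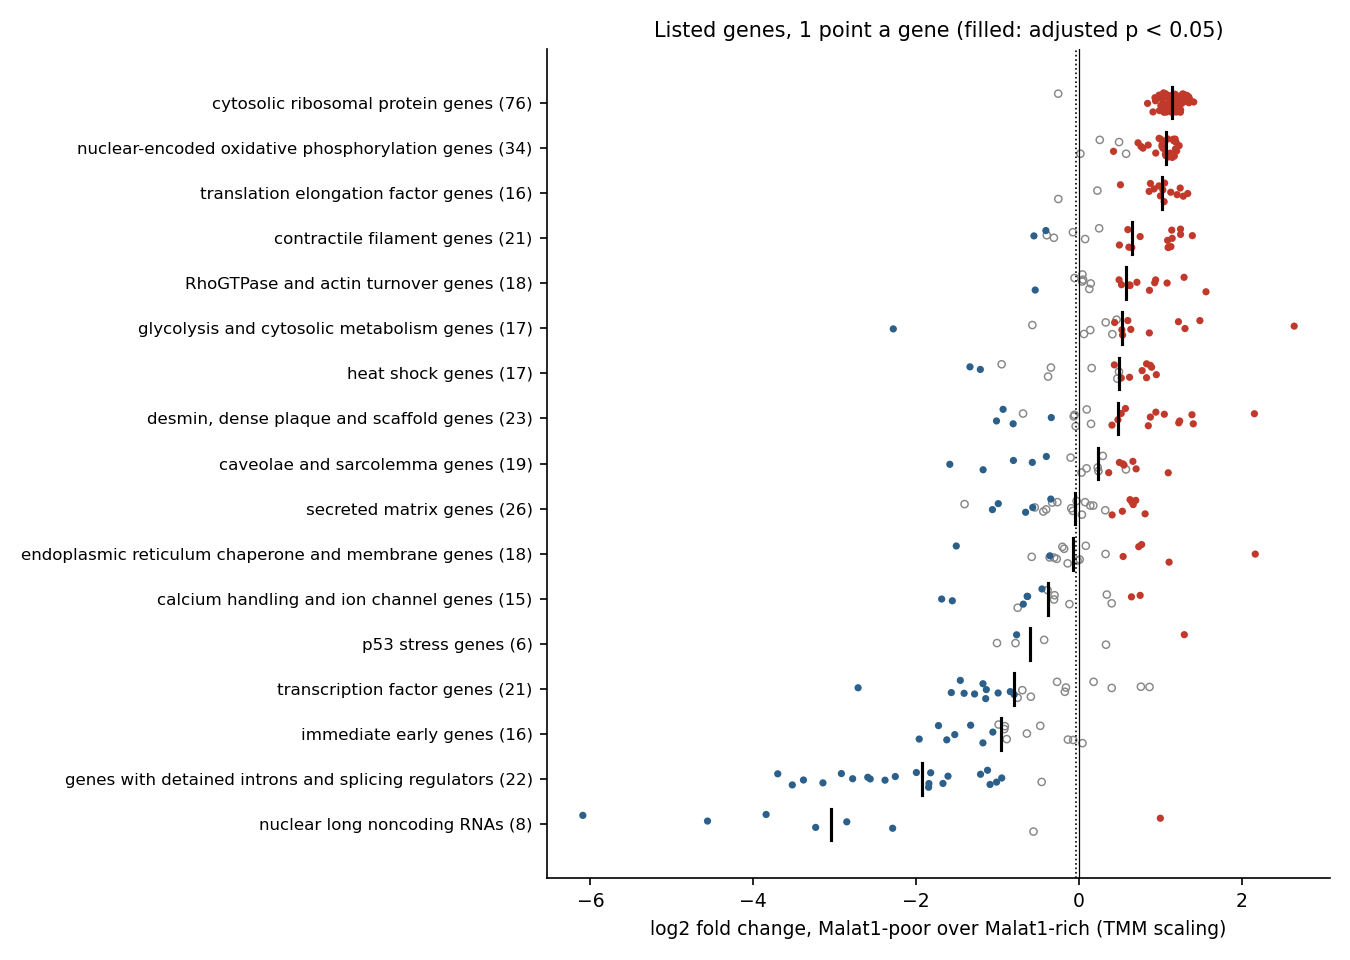
Log2 fold change of each tested gene in 17 lists, Malat1-poor over Malat1-rich, 1 point a gene, filled in red (higher) or blue (lower) at an adjusted p under 0.05 and open otherwise. Black bars mark each list's median and the dotted line the median of all genes tested (-0.03); lists run from nuclear long noncoding RNAs at -3.04 to ribosomal proteins at 1.14.

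Cyb5r3, Des, Synpo2 and Pkp4 are the genes by which this group of barcodes was marked out in the same data, so their levels in the members are a description without a test. Cyb5r3, the NADH-cytochrome b5 reductase of the endoplasmic reticulum and mitochondrial outer membrane, had 1500 and 1324 CPM in members, 1278 and 1438 CPM in barcodes with 2 to 4 Malat1 UMIs, 397 and 464 CPM in Malat1-rich barcodes and 370 and 408 CPM in deep SMCs. Both Malat1-low classes were far above both Malat1-high classes. Cyb5a, which encodes the electron acceptor of this reductase, had 263 and 302 CPM against 215 and 235 CPM (0.77 ± 0.18, adjusted p = 0.000204), a call lost with scaling by library size (0.25, adjusted p = 0.259).

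Des, the muscle intermediate filament protein, had 288 and 149 CPM in members against 97.8 and 35.4 CPM, and differed between the aortas: the gap between the members of aorta 2 and the Malat1-rich barcodes of aorta 1 was smaller than that between the members of both aortas. Synpo2, an actin-bundling protein of the Z-disc and dense body, had 1004 and 771 CPM against 598 and 435 CPM. Pkp4, a plakophilin of cell junctions, had 466 and 401 CPM against 254 and 190 CPM. All 4 genes had a higher level in the members than in the Malat1-rich barcodes of the same aorta. Des was detected in only 16.2% and 11.4% of members, against 10.7% and 3.27% of Malat1-rich barcodes. Cyb5r3 was detected in 75.6% and 73.7% of members.

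**Figure D4:**
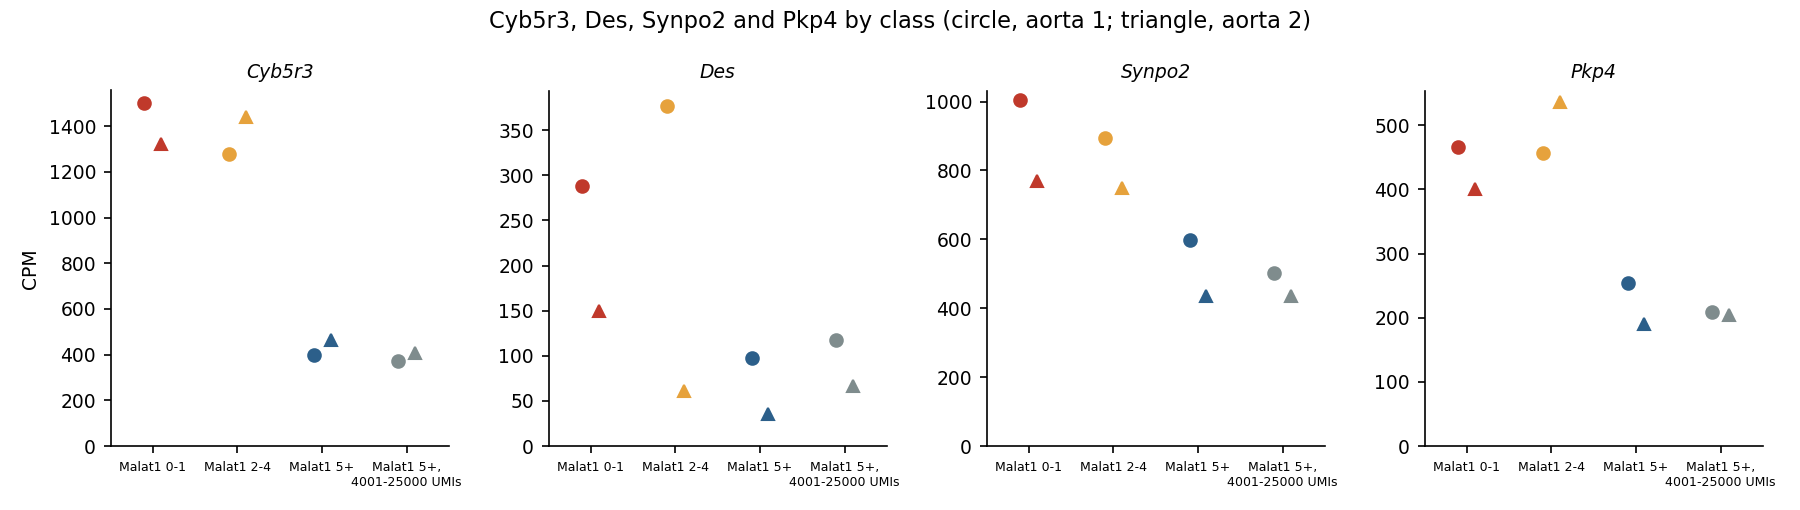
Level (CPM, axis from 0) of Cyb5r3, Des, Synpo2 and Pkp4 by class, aorta 1 as circles and aorta 2 as triangles. Cyb5r3 separates both Malat1-low classes from both Malat1-high classes, while Des shows the widest spread between aortas, with 377 and 60.8 CPM in barcodes of 2 to 4 Malat1 UMIs.

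Barcodes outside the mitochondrial gate allow a check that the rule did not use. Among SMC barcodes with a mitochondrial share of 10% or more, none of them members, 128 and 96 were Malat1-poor and 102 and 66 Malat1-rich. Of 2714 genes tested there, 572 (21.1%) were higher and 608 (22.4%) lower. Cyb5r3 was higher in the Malat1-poor barcodes (log2 fold change 1.39, adjusted p = 8.04e-06), as were Synpo2 (0.98, adjusted p = 0.000218) and Pkp4 (1.60, adjusted p = 7.33e-06), whereas Des was at 0.56 and was not called (adjusted p = 0.157). In the other barcodes outside the gate, from 500 to under 1000 UMIs, 109 of 1004 genes (10.9%) were higher and 208 (20.7%) lower. There Cyb5r3 (1.60, adjusted p = 0.00328) and Pkp4 (1.20, adjusted p = 0.0254) were higher, but Synpo2 (0.08, adjusted p = 0.894) and Des (-0.0676, adjusted p = 0.938) were not called. Both sets are other droplets of the same 2 animals, so they repeat the measurement in barcodes and not in animals. At a mitochondrial share of 10% or more, 75 of 75 ribosomal protein genes were higher, 20 of 21 detained-intron and splicing genes lower, 27 of 34 oxidative phosphorylation genes higher and 9 of 21 contractile genes higher with 1 lower. Of 23 desmin and scaffold genes there, 4 were higher and 3 lower (median 0.03), of 17 caveolae and sarcolemma genes 2 and 5 (0.09), and of 17 endoplasmic reticulum genes 3 and 8 (-0.45). Calls of Ethe1, Eno1, Ppp1r12a, Rhob, Flnc, Sorbs2, Cav1, Gucy1b1, Mgp, Fn1, Mef2a and Cdkn1a were lost there.

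The wider list of desmin, dense plaque and scaffold genes was mixed. Of 23 genes, 13 were higher and 4 lower, with a median of 0.48 that turned to -0.05 with scaling by library size, where 6 were higher and 9 lower. Vim, vimentin, had 8570 and 9789 CPM in members against 4500 and 5037 CPM (1.39 ± 0.07, adjusted p = 1.12e-42). Csrp1, a LIM protein of actin filaments, was higher by 0.85 and the cross-linker filamin C, Flnc, by 1.24, a call lost with DESeq2 (adjusted p = 0.115) and at a mitochondrial share of 10% or more (adjusted p = 0.327). Pdlim5, a LIM protein of the Z-disc, was lower, with 105 and 115 CPM against 363 and 238 CPM (-1.01 ± 0.21, adjusted p = 3.74e-05; with DESeq2 adjusted p = 0.18), as was the adhesion adaptor Sorbs2 (-0.93), although not against deep SMCs (-0.50, adjusted p = 0.123), where 13 genes of the list were higher and 1 lower. The list also holds Des, Synpo2 and Pkp4, which were chosen on these data, so its count is no independent evidence of a direction.

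Of 19 caveolae and sarcolemma genes, 7 were higher and 5 lower, with a median of 0.24 that turned to -0.28 with scaling by library size. Cavin1, a coat protein of caveolae, had 868 and 859 CPM in members against 539 and 560 CPM (1.10 ± 0.12, adjusted p = 8.45e-16). Cav1 (0.67) and the integrin subunit Itgb1 (0.54) were higher by less, and both calls were lost with scaling by library size. Sgcd, a sarcoglycan of the dystrophin complex, had 66.5 and 54.3 CPM against 271 and 225 CPM (-1.58 ± 0.25, adjusted p = 3.58e-08), and the collagen-binding integrin subunit Itga1 was lower too (-1.17). Dystrophin itself, Dmd, was lower against the Malat1-rich barcodes (-0.57) but at 0.16 and not called against deep SMCs.

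Of 15 calcium handling and ion channel genes, 2 were higher and 6 lower (median -0.38). The counts were 2 and 2 of 14 with the depth-matched comparator, 3 and 2 of 17 without the filter on low counts and 0 and 0 with DESeq2. They were 2 and 5 of 16 against deep SMCs and 0 and 10 of 15 with scaling by library size, so they depended on the setting. Atp2b1, a plasma membrane calcium pump, had 44.4 and 37.3 CPM in members against 148 and 187 CPM (-1.55 ± 0.30, adjusted p = 4.69e-06). The L-type channel gene Cacna1c had 3 and 4 UMIs against 18 and 14 (-1.68 ± 0.57, adjusted p = 0.0123), and was not called against deep SMCs (-0.91, adjusted p = 0.304). Kcnmb1, the beta subunit of the large-conductance potassium channel (0.75), and Gucy1b1, a subunit of the nitric oxide receptor (0.65), were the higher genes, and scaling by library size removed both calls. Gucy1b1 was not called against deep SMCs either (0.18, adjusted p = 0.419).

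Of 26 secreted matrix genes, 7 were higher (26.9%) and 5 lower (19.2%), near the 20.2% and 21.0% of all genes tested, with a median of -0.05. With scaling by library size 0 were higher and 18 lower (median -0.58), and in barcodes with a mitochondrial share of 10% or more 0 were higher and 13 lower of 25 (median -0.72). The median against deep SMCs was 0.04. Eln, tropoelastin, had 1625 and 1677 CPM in members against 4151 and 4818 CPM (-0.99 ± 0.08, adjusted p = 1.35e-22), and deep SMCs had 3524 and 3379 CPM. Fbln5, the fibulin that guides elastic fiber assembly, had 322 and 397 CPM against 595 and 870 CPM (-0.57 ± 0.13, adjusted p = 0.000241), a call lost with DESeq2 (adjusted p = 0.254). Both elastic fiber genes were below every sum of the other classes with high Malat1.

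Fn1, fibronectin (0.82), Mgp, the matrix Gla protein (0.67), and Bgn, biglycan (0.63), were higher with calls that were lost with scaling by library size. Mgp differed between the aortas and its CPM overlapped between the classes, at 5703 and 10797 CPM in members against 6734 and 6750 CPM. Col3a1 had 1009 and 1063 CPM against 1482 and 1391 CPM and was not called (-0.03, adjusted p = 0.853). Of 18 endoplasmic reticulum genes, Cyb5r3 among them, 5 were higher and 2 lower (median -0.08; -0.60 with scaling by library size, 2 higher and 10 lower; 0.04 against deep SMCs). Within the translocon that carries nascent secreted proteins, Sec61a1 was lower (-1.50 ± 0.38, adjusted p = 0.000513) and Sec61b higher (1.11 ± 0.17, adjusted p = 1.34e-08). Against deep SMCs Sec61a1 was not called (-0.67, adjusted p = 0.166), while Sec61b was (0.76). The chaperone Hspa5 had 574 and 519 CPM against 1062 and 844 CPM (-0.35, adjusted p = 0.00895), a call lost without the aorta as a block (adjusted p = 0.103) and with the depth-matched comparator (adjusted p = 0.0636). In the barcodes with a mitochondrial share of 10% or more, Eln (-1.85) and Fbln5 (-1.73) were lower as well.

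Of 17 heat shock genes, 9 were higher and 2 lower, with a median of 0.49 that turned to -0.03 with scaling by library size. The 2 lower genes were the stress-inducible pair Hspa1a, with 136 and 88.3 CPM in members against 335 and 386 CPM (-1.21 ± 0.20, adjusted p = 2.07e-07), and Hspa1b (-1.34 ± 0.27, adjusted p = 1.67e-05), whose near-identical sequences can share reads. The constitutive chaperones Hsp90ab1 (0.83), Hspa8 (0.78) and the small heat shock protein Cryab (0.88) were higher. Of 6 genes of the p53 response tested, Cdkn1a was lower (-0.76, adjusted p = 0.00824) and Ccng1 higher (1.30, adjusted p = 0.00185). Neither share, 16.7% each, stands far from that of all genes. The call of Cdkn1a was lost against deep SMCs (-0.44, adjusted p = 0.0974), and that of Ccng1 with scaling by library size (adjusted p = 0.0883) and with the depth-matched comparator (adjusted p = 0.069).

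Of 17 genes of glycolysis and cytosolic metabolism, 10 were higher and 1 lower (median 0.53; 0.00 with scaling by library size, 5 higher and 1 lower). Gapdh had 1042 and 1239 CPM in members against 565 and 696 CPM (1.31 ± 0.11, adjusted p = 1.22e-22), and the enolase Eno1 was higher by 1.49. Ckm, the muscle creatine kinase, had 12 and 16 UMIs against 3 and 3 (2.65 ± 0.61, adjusted p = 0.000151). Phkg1, a catalytic subunit of phosphorylase kinase, had 5 and 2 UMIs against 32 and 16 (-2.28 ± 0.50, adjusted p = 6.78e-05), a call lost with DESeq2 (adjusted p = 0.159).

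The reporter transcripts were measured too. The values of eGFP were 6144 and 6081 CPM in members against 6306 and 5572 CPM, called at 0.49 ± 0.07 (adjusted p = 2.23e-09) but at -0.04 with scaling by library size, so its direction rests on the scaling. Transcripts of tdTomato, the reporter of unrecombined cells, had 30.5 and 30.6 CPM against 120 and 106 CPM (-1.44 ± 0.35, adjusted p = 0.000311). Against deep SMCs, at 50.5 and 54.1 CPM, tdTomato was not called (-0.31, adjusted p = 0.596).

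Among called genes with at least 50 UMIs and the same direction in both aortas, the 12 with the highest fold change were taken. At the top were Hba-a1 and Hbb-bs, the adult globin genes of red cells, and these 2 rest on few barcodes. Hbb-bs had 1438 and 34 UMIs in members against 25 and 31, and Hba-a1 had 604 and 9 against 4 and 12. The 4 erythroid markers passed 1% of UMIs in 3 members of aorta 1 and 0 of aorta 2, and 1 member held 2249 such UMIs, 56.8% of its total. Without barcodes of over 3 UMIs of Hba-a1 and Hbb-bs, neither gene was called (0.68, adjusted p = 0.37, and 0.56, adjusted p = 0.126).

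The other 10 were Cyb5r3 and Des, described above, and 8 genes of varied function. Bdh1, a mitochondrial enzyme of ketone body metabolism, had 35 and 17 UMIs in members against 9 and 6 (2.23 ± 0.40, adjusted p = 9.06e-07), and Ethe1, a mitochondrial sulfur dioxygenase, 43 and 34 against 20 and 9 (1.88). Dsp, desmoplakin, which anchors intermediate filaments at junctions, had 134 and 103 UMIs against 55 and 40 (1.79 ± 0.19, adjusted p = 4.75e-16). Optc, the matrix proteoglycan opticin, had 146 and 110 against 67 and 37 (1.78 ± 0.18, adjusted p = 1.17e-16). Lgals3, galectin 3 (1.90), Trnp1 (1.84), the calcium-binding Efhd2 (1.77) and the Wnt inhibitor Wif1 (1.75) completed the set. Each had more UMIs in the members of either aorta, although the members' sums were of like size to the Malat1-rich sums (342717 and 280353 UMIs against 322357 and 279351).

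Gene structure differed between the genes called in either direction. In the annotation (GENCODE M21, GRCm38), the median genomic span was 44.7 kb for the lower genes, 25.8 kb for genes not called and 11.1 kb for the higher genes, and the median exonic length 7.68, 4.62 and 2.74 kb. Among 638 genes with a span of up to 5 kb, 10.2% were lower and 42.8% higher, and among 966 genes of over 80 kb, 36.1% were lower and 8.9% higher. Higher genes also had more counts, with a median of 278 UMIs over the 4 sums against 66 for lower genes. Among genes with at least 200 UMIs, 6.94% were lower and 81.6% higher at up to 5 kb, and 30.3% and 29.0% at over 80 kb. The trend with length was thus present in abundant genes too; short genes include the ribosomal protein and respiratory chain genes described above. Genes are not independent replicates, and no test was made.

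**Figure D5:**
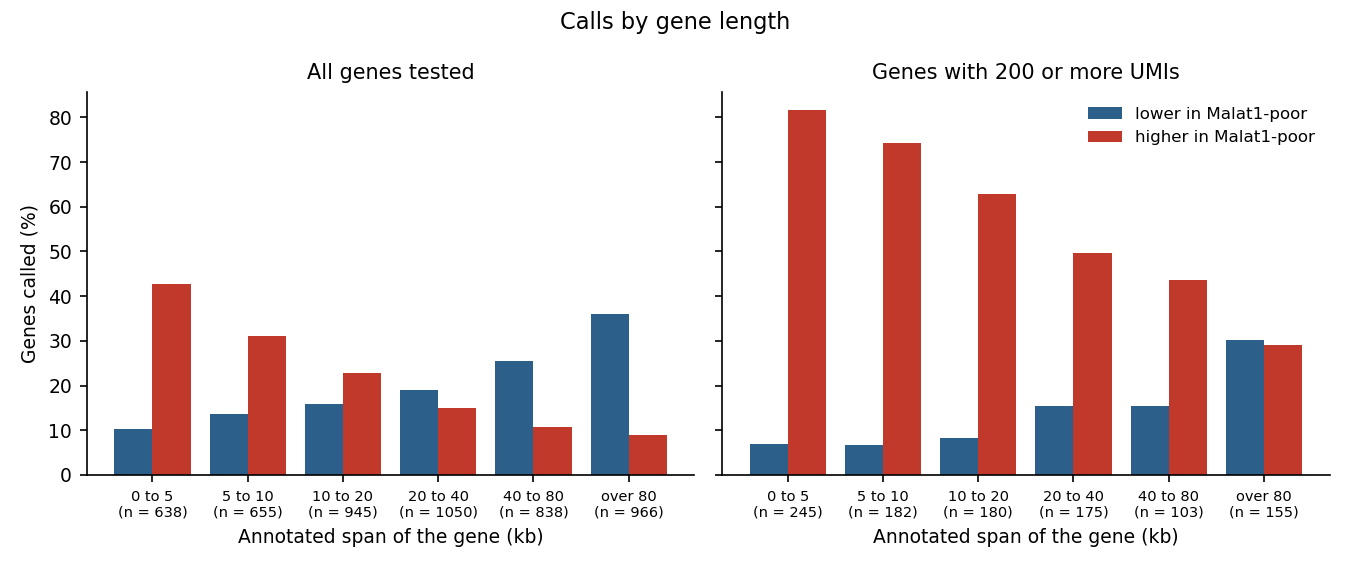
Percentage of genes called lower (blue) and higher (red) in Malat1-poor barcodes by annotated genomic span in kb, for all genes tested (left) and genes with 200 or more UMIs over the 4 sums (right); bars start at 0. The share of lower genes rises from 10.2% to 36.1% from the shortest to the longest bin on the left, while the share of higher genes falls from 42.8% to 8.9%.

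Barcodes just inside and just outside the limits of the rule are given without a test. Levels in this paragraph are CPM of all UMIs. Barcodes with 1 Malat1 UMI (110 and 76) had 17.9 and 13.5 CPM of Neat1 and 1469 and 1371 CPM of Cyb5r3. Those with 2 (84 and 36 barcodes) had 20.6 and 27.6 CPM of Neat1 and 1161 and 1269 CPM of Cyb5r3. Cyb5r3 stood at 2833 and 1915 CPM in members of under 1100 UMIs and at 1965 and 2149 CPM in Malat1-poor barcodes from 900 to under 1000 UMIs. At the mitochondrial limit it was 1171 and 1501 CPM just inside and 1256 and 1235 CPM just outside. At the limit on Myh11, Cnn1 and Lmod1, 3 and 3 members with a sum of 3 UMIs had 23832 and 7918 CPM of Acta2, and 3 and 4 barcodes with a sum of 2 had 3625 and 3639 CPM. Barcodes of 2 to 4 Malat1 UMIs, put in place of the members, gave 717 higher and 625 lower genes against the same Malat1-rich barcodes.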

How the data were processed

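Single-cell 3′ RNA-seq was available for 2 thoracic aortas, 1 library each. The authors aligned reads to mm10 with the eGFP and tdTomato sequences added and deposited filtered matrices of UMI counts, made with Cell Ranger 4.0.0 per the file headers; Seurat 4.0 is named in the labels. Whether intronic reads were counted is not given in the sources used here. The labels give 6278 and 4300 cells after filtering, against 6744 and 4698 barcodes left here by limits of 1000 to 25000 UMIs, over 200 genes and under 10% mitochondrial UMIs. Scrublet (scanpy 1.11.5, Python 3.11.15) marked 201 and 89 of these barcodes as doublets, including 3 and 0 members, and none was removed.

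Counts were summed per aorta and class. The model had the aorta as a block, taken from the labels, which name individual aortas, and was fitted with edgeR 4.0.16 (R 4.3.3), using TMM scaling, filterByExpr and its quasi-likelihood test, with p-values adjusted by Benjamini-Hochberg. Scripts were tested on simulated counts. DESeq2 1.42.0 was an alternative. The fit has 1 residual degree of freedom, and p-values rest only on how far the class difference varied between these 2 animals. Genes named are the 12 highest and 12 lowest fold changes among called genes with the same direction in both aortas and at least 50 UMIs, plus members of 17 lists, 4 markers and the rule's genes. Members and lists were chosen with earlier results of these data known. Genes discussed within a list were picked after their values were seen. Intervals of shares are exact binomial and those of count ratios exact conditional intervals at 95%, covering counting error only.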

Additional observations from a re-analysis of the deposited data

Results flagged for a closer look

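Malat1-poor SMC barcodes also appeared in data that the gate leaves out, above the limit of 3 barcodes that a count of 0 allows. With a mitochondrial share of 10% or more there were 128 in aorta 1 and 96 in aorta 2, of 350 and 209 SMC barcodes (36.6% and 45.9%). From 500 to under 1000 UMIs there were 127 and 119, of 296 and 206 (42.9% and 57.8%). Above 4000 and up to 25000 UMIs there were 21 and 28. These barcodes entered none of the comparisons of the members, and the genes that differed among the first 2 sets are counted below. With 2 aortas, no group was large enough to look for a sample that stands apart.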

How the results depend on the processing

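Of 2140 recomputed values of 114 named genes under settings with a test, 1906 had the same direction and side of the threshold, 165 lost the call, 24 gained one and 45 turned in direction, 16 of them in genes called and 29 in genes not called in the comparison as reported. Counts of genes that differed depended on the barcodes used. Members with Malat1 at 0 gave 1321 (638 higher, 683 lower), a gate of 10 smooth muscle UMIs 1247 (570, 677), 12 more genes of other types in the gate 1018 (430, 588), barcodes of 1000 to 2000 UMIs 935 (419, 516), of 2000 to 4000 UMIs 1043 (514, 529) and a mitochondrial limit of 5% 695 (312, 383). Fewer barcodes and fewer genes enter these sums. With a depth-matched comparator, 807 of 4553 genes were higher and 855 lower. By tool, DESeq2 gave 508 (368, 140) and library size alone 369 higher and 2017 lower. Alternatives chosen after seeing the data were barcodes of 2 to 4 Malat1 UMIs in place of the members with 1342 (625 lower), barcodes from 500 to under 1000 UMIs with 317 (109, 208), a mitochondrial share of 10% or more with 1180 (572, 608), leaving out barcodes with haemoglobin, and a comparator of at least 40 Malat1 UMIs. Outside the ribosomal protein list, 198 listed genes were called; this became 131 with the limit of 5%, 72 from 500 to under 1000 UMIs and 110 with DESeq2. The mean share of Malat1-poor barcodes over both aortas, 39.95%, became 51.3% when thinned, 47.0% with the gate of 10, 28.2% with the limit of 5% and 19.9% with Malat1 at 0, and ran from 35.4% to 44.5% when either aorta was left out.

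Direction turned from 500 to under 1000 UMIs for Des (-0.0676), Hbb-bs (-0.39), Mylk (-0.48), Cav1 (-0.43), Kcnmb1 (-0.0104), Fn1 (-1.64), Bgn (-0.32) and Gm42418 (-0.25), at 1000 to 2000 UMIs for Flnc (-0.0679), Itgb1 (-0.12) and Gucy1b1 (-0.0013), and at a mitochondrial share of 10% or more for Itgb1 (-0.0687), Bgn (-0.25) and Dmd (0.0934). Dmd was also at 0.16 against deep SMCs, Actb at -0.35 with the gate of 10 and -0.48 with library size alone, where Gm42418 was at -0.0121. Genes not called turned as well. Actb was at -0.75 from 500 to under 1000 UMIs, -0.24 with 12 more genes in the gate, -0.159 with Malat1 at 0, -0.162 with the limit of 5%, -0.146 at 2000 to 4000 UMIs, -0.0092 at 1000 to 2000 UMIs and -0.0036 with classes cut by Malat1 share. Col3a1 was at 0.14 at 2000 to 4000 UMIs, 0.086 against deep SMCs, 0.0762 without a gene filter, 0.0221 by Malat1 share, 0.0158 with the depth-matched comparator, 0.0105 with DESeq2, 0.0086 with the gate of 10 and 0.0083 with RLE factors. Ndufv1 was at -0.50 with library size alone, -0.32 with the gate of 10, -0.0436 at 2000 to 4000 UMIs and -0.0175 without doublets. Smtn was at 0.21 against deep SMCs and 0.0303 without a gene filter, Jund at 0.0336 with at least 40 Malat1 UMIs in the comparator and 0.0334 without a gene filter, Srsf5 at 0.0308 and Eif4a2 at 0.15 at a mitochondrial share of 10% or more, and Snhg12 at 0.0648 and Rpl7l1 at 0.0971 with 2 to 4 Malat1 UMIs in place of the members. The cause was not tested. The limit of 5% removed the calls of Mylk, Flnc, Itgb1, Kcnmb1, Gucy1b1, Mgp, Fn1, Bgn, Cyb5a, Hspa1b and Cdkn1a, and barcodes of 1000 to 2000 UMIs those of Wif1, Sorbs2, Cav1, Kcnmb1, Fbln5, Mgp, Fn1, Sec61b, Cyb5a and Cdkn1a. With 12 more genes in the gate, Efhd2, Trnp1, Hbb-bs, Mylk, Flnc, Cav1, Itgb1, Kcnmb1, Gucy1b1, Fbln5 and Cyb5a lost theirs. Without the aorta as a replicate block, 922 genes were higher and 980 lower, and 2 named genes, Rhob and Hspa5, lost their call. Leaving out an aorta leaves no residual degrees of freedom, so those 228 fold changes carry no test; 7 moved beyond the spread between aortas and 6, all of genes not called, changed sign. The sums of 279351 to 342717 UMIs limit what can be seen of rare transcripts.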

Other observations

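Gm42418 and Gm26917 are neighbours on the same strand of chromosome 17, and this pair was chosen after its values were seen. Gm26917 (chr17:39843013-39846341) had 0 UMIs in all members, whereas Gm42418 (chr17:39846958-39848788) had 9798 and 7623 CPM in members against 9216 and 7391 CPM in Malat1-rich barcodes (log2 fold change 0.51, adjusted p = 5.4e-11 by edgeR). Scaled by library size alone, Gm42418 was at -0.0121 (adjusted p = 0.883), so its call rests on the scaling and no direction is given for it. Both loci are annotated as noncoding RNAs. Within barcodes from 500 to under 1000 UMIs, 1 of 19 contractile genes was higher and 4 lower (median 0.04), beside 10.9% higher and 20.7% lower of all 1004 genes tested there. In the same barcodes 46 of 75 ribosomal protein genes were higher and 0 lower, and 13 of 14 detained-intron and splicing genes were lower.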
